A study of Mus musculus with 20 samples.

Results

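The 48 genes described here carry cells from the G1 phase into DNA replication: the cyclins, kinases and phosphatase of the G1/S transition (9 genes), the E2F transcription factors and the pocket protein p107 (6), the factors that license origins (12), the proteins that activate the replicative helicase (3), the polymerases and other fork proteins (11), the enzymes of nucleotide supply (4) and genes of histone and chromatin supply (3). They were taken by symbol from the platform annotation, with each gene read from its probe set of highest mean level over all 20 arrays. All 48 were measured, out of 18193 genes tested, on 113 probe sets; 38 of them had several. The arrays come from Hepa1-6, an established mouse hepatoma line of liver origin from the C57L strain, and all results concern that single line.

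Cells of both arms stood in medium depleted of growth factors from 4 h before the start. They were then given TGFβ1 at 1 ng/ml or nothing, and RNA was taken after 0, 1, 3, 6 and 10 h from duplicate cultures, which made 10 groups of 2 arrays. At 0 h the labels treat both arms as equivalent. Untreated cells thus also lacked growth factors, and changes with time in them are changes of cells kept in that medium.

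Cyclin D with CDK4 or CDK6, and then cyclin E with CDK2, phosphorylate the retinoblastoma family of pocket proteins, which releases E2F factors at the promoters of S-phase genes. The products of those genes load the MCM helicase on origins in G1, switch it on, and supply the polymerases, clamp, nucleotides and histones that S phase consumes. TGFβ is known as a cytokine that slows the entry of many epithelial cells into S phase, and hepatocytes are a classical example.

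Promoter stretches were read to show what the genes of these steps carry ahead of their start sites, since E2F factors bind short GC-rich words there. RefSeq promoters of GRCm38.p6 (250 bases before to 50 after the start) were read for 40 of the 48 genes, without Ccnd1, Ccnd2, Ccne2, Mcm4, Gmnn, Gins1, Gins2 and Pole. The E2F motif was searched on both strands as the word TTCCCGC, as its variant TTGGCGC, and as the further variants TTCGCGC and also TTGCCGC. At least 1 of them was found in 26 of those 40 genes (65.0%), against 16.0% of all tested genes with a promoter and 10.9% of all genes in the RefSeq table. The CCAAT box, read on both strands, was found in 62.5% against 42.0% of tested genes, and the GC box GGGCGG, on both strands, in 77.5% against 57.3%. These words can overlap: TTGGCGC after an A shares letters with the reverse of CCAAT, the word TTCCCGC before CC does so with the reverse of GGGCGG, and a palindromic TTGGCGCCAA counts as 2 words. A match describes letters, not a bound site. The stretches below end before the start site, run 5′ to 3′ on the gene's strand, and have the E2F words in capitals; the first 8 genes were lower with TGFβ1 at 6 h and the last 2 were not.
E2f8, chr7:48881681-48881727, minus strand: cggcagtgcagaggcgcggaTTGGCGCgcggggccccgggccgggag
Cdc6, chr11:98907993-98908039, plus strand: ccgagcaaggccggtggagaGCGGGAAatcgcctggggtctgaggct
Mcm5, chr8:75109325-75109386, plus strand: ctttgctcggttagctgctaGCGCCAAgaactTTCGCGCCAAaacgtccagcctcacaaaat
Mcm6, chr1:128359722-128359771, minus strand: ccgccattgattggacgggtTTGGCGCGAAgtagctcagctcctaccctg
Pola1, chrX:93632250-93632344, minus strand: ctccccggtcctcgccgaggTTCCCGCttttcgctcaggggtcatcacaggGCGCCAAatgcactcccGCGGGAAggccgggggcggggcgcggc
Prim1, chr10:128015180-128015214, plus strand: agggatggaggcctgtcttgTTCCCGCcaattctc
Rrm2, chr12:24708004-24708045, plus strand: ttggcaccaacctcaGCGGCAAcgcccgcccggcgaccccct
Uhrf1, chr17:56303269-56303315, plus strand: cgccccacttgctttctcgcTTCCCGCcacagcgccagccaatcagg
Cdc25a, chr9:109875493-109875542, plus strand: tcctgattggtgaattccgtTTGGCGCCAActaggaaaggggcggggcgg
Rrm1, chr7:102441608-102441654, plus strand: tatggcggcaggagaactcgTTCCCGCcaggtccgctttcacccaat
An E2F word was found in 17 of the 27 genes with a promoter that were lower at 6 h (63.0%) and in 9 of the 13 others (69.2%), so the word did not separate them. The promoter stretches of E2f1, Tk1 and Mcm10, for their part, held none of these letters, which says nothing about whether an E2F factor binds them.

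Values are log2 expression, so a difference of 1 is a doubling. Duplicate arrays correlated at 0.9958 to 0.9971 over all probe sets, and the median standard error (SE) of a difference between groups was 0.07 for these 48 genes against 0.13 for all genes. Ccnd2 and Tyms, with mean levels of 5.07 and 4.18, lay at or below the array medians of 5.15 to 5.21, where a change may not be measurable; the other 46 lay above the median level of all genes. Among hepatocyte markers 7 of 9 lay above the array medians, with Afp at 12.8 and Alb at 12.0, while Ahsg (4.45) and Apob (5.16) did not. Of 5 leukocyte markers 3 lay above the array medians (Csf1r 6.63, Adgre1 5.46 and Cd68 5.23) and Ptprc stood at 3.31; none was called at 6 or 10 h. Of 6 stellate cell and fibroblast markers 3 lay above, with Dcn at 13.4 and Lrat, the lowest, at 2.73; Col1a1 was called higher with TGFβ1 at 6 and 10 h and Pdgfrb at 6 h. Summed leukocyte markers ran from 7.5 to 8.0 on treated and from 7.6 to 8.0 on untreated arrays, and summed stellate cell and fibroblast markers from 13.4 to 13.6 and from 13.4 to 13.5. Summed hepatocyte markers ran from 13.3 to 13.7 on treated and from 13.6 to 13.8 on untreated arrays; Alb, Afp and Foxa2 were called lower with TGFβ1 at 6 and 10 h. Of 4 cholangiocyte markers 3 were called higher at 6 h and 2 at 10 h. Summed cholangiocyte markers ran from 11.2 to 11.9 on treated and from 11.1 to 11.3 on untreated arrays. The part of all these markers in the results below was not tested. In whole cultures, fewer cells in S phase and less RNA per cell cannot be told apart.

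Replication genes ran down with time in untreated cells. At 10 h against 0 h, 41 of the 48 fell and 3 rose, where 12.8% of all genes fell and 13.3% rose (limma, adjusted p under 0.05); the median difference was −0.41, against 0.03 for all genes. All 12 licensing genes, all 3 helicase activators, 10 of 11 fork genes, 3 of 4 nucleotide genes and all 3 histone and chromatin genes were among those that fell. The genes that rose were E2f1 (0.61), Ccnd1 (0.16; lost without any single array compared, adjusted p = 0.0971 to 0.125) and Cdk4 (0.15), and Ccnd2, E2f2, Rfc4 and Tyms passed in neither direction. For E2f2 the set used gave −0.01, while a second set with a mean of 5.30 gave −0.66 (limma, adjusted p = 8.07e-04 over all probe sets). Over the 48 genes the fall came late. At 1 h limma called 0 of the 48 (0.187% of all genes), with 10 at unadjusted p under 0.05 (8.0% of all genes). At 3 h 9 fell and 1 rose (3.21% and 4.95% of all genes), and at 6 h 19 fell and 2 rose (10.3% and 10.4%). The medians at these times were −0.05, −0.09 and −0.16. The 10 calls at 3 h shrank to 2 without untreated 0 h replicate 1, to 5 without its replicate 2, to 1 without untreated 3 h replicate 1 and to 5 without its replicate 2. The 21 calls at 6 h shrank to 13 without untreated 0 h replicate 1 and to 12 without untreated 6 h replicate 2, whereas the 44 calls at 10 h became 37 to 40; 33 of the 44 genes were called whichever array was left out.

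With TGFβ1 the median of the 48 genes ran lower still, though not in every role. Treated cells at 10 h against treated cells at 0 h had 39 genes that fell and 2 that rose (13.6% and 14.5% of all genes), with a median of −0.59. At 6 h the corresponding counts were 35 and 2 (12.8% and 11.2% of all genes), with a median of −0.38. At 3 h 14 fell and 2 rose (8.28% and 7.55%), and at 1 h 1 fell and 2 rose (1.06% and 2.45%). The 16 calls at 3 h became 8 without treated 0 h replicate 1, 9 without treated 3 h replicate 1 and 8 without its replicate 2, and the 3 at 1 h became 1 without either 0 h array or without treated 1 h replicate 2, and 0 without treated 1 h replicate 1. Array by array, the median of the 48 genes relative to 0 h was −0.33 and −0.41 on the treated and −0.14 and −0.19 on the untreated arrays of 6 h. On the arrays of 10 h it was −0.59 and −0.58 against −0.45 and −0.39. The treated arrays lay below the untreated ones at both times without overlap, while the 4 arrays of 1 h all lay between −0.07 and −0.05 and the arms overlapped at 3 h. The 9 cyclin and CDK genes did otherwise: their medians on the arrays of 10 h were −0.10 and −0.07 treated against −0.31 and −0.32 untreated, with the treated arrays above, and the arms overlapped at 6 h.

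**Figure D1:**
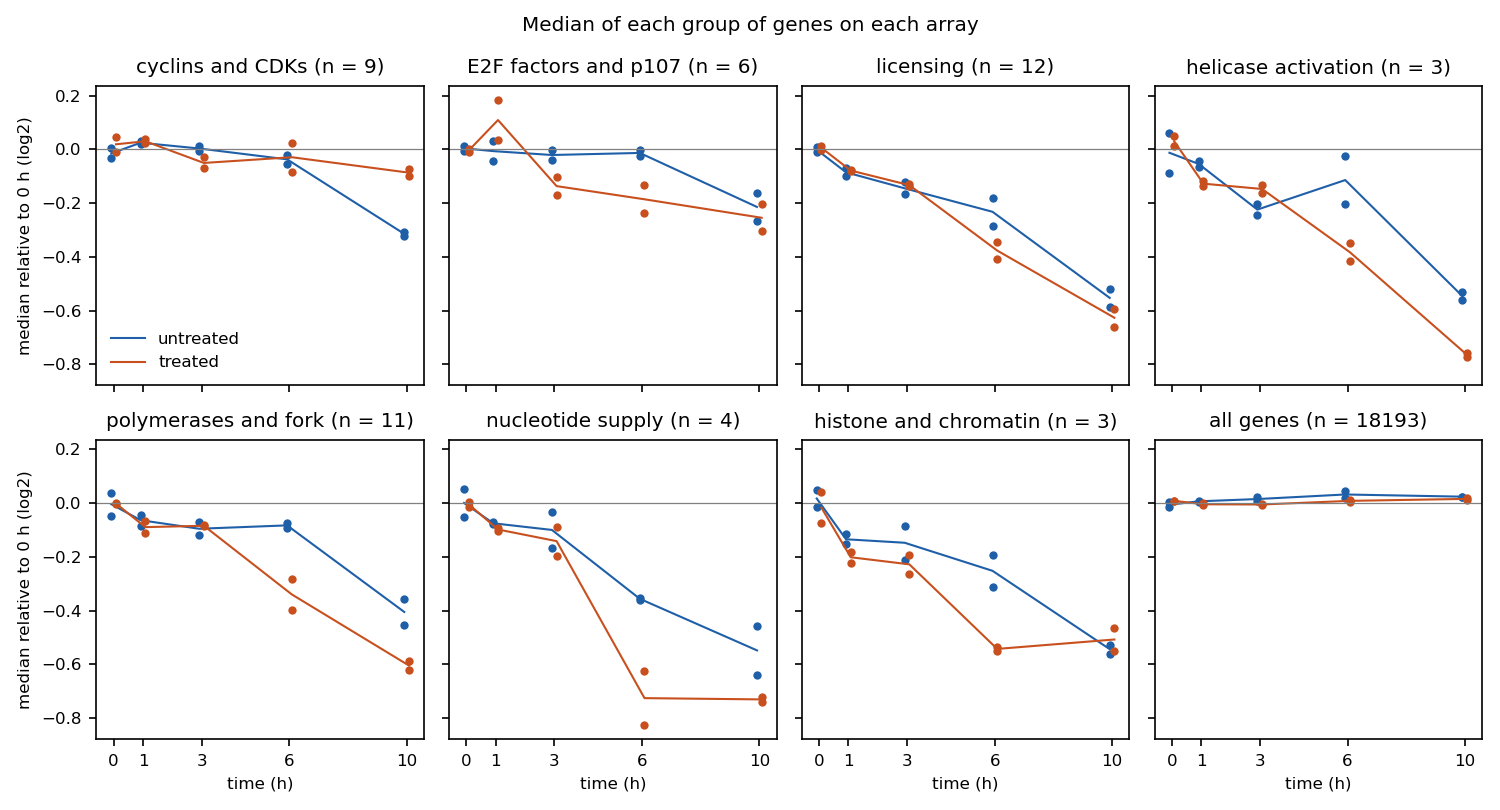
Median log2 level relative to 0 h (y axis) of the genes of each role and of all 18193 genes, by time in h (x axis), with a point per array and a line through the mean of the duplicates of each arm. The untreated arms fall by 10 h in every role, the treated arrays lie lower at 6 h in all roles but the cyclins and CDKs, and at 10 h they lie above the untreated ones for the cyclins and CDKs and overlap them for the E2F factors and p107 and for histone and chromatin; the panel of all genes stays within −0.01 to 0.04 of its 0 h level.

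Treated and untreated cells of the same time were compared next, which takes out the changes with time that both arms share. At 0 h 0 genes were called by limma, among the 48 or all genes (0%). An unadjusted p under 0.05 was held by 1 of the 48 (4.07% of all genes). At 1 h only E2f2 was called, as higher (1.91% of all genes were higher), and 2 were counted without either untreated 1 h array. At 3 h 5 genes were lower and 2 higher (8.55% and 6.73% of all genes), with a median of −0.01 against −0.02 for all genes. At 6 h 29 were lower and 1 higher (7.96% and 7.77% of all genes), with a median of −0.25 against −0.03. At 10 h 16 were lower and 2 higher (4.06% and 5.07% of all genes), with a median of −0.15 against −0.00. Both treated arrays lay below both untreated ones in 37 of the 48 genes at 6 h and above them in 4 (29.5% and 21.8% of all genes), and in 36 and 6 at 10 h (25.0% and 25.4%). The mean of the differences over 1, 3, 6 and 10 h was lower in 26 genes and higher in 4 (11.6% and 10.9% of all genes). Among called genes the largest fold was 1.64 at 1 h and 1.50 at 3 h, both of E2f2, 1.43 at 6 h (Cdc6) and 1.44 at 10 h (Tk1). Of the 29 lower at 6 h, 12 were also lower at 10 h (41.4% of the 6 h genes and 75.0% of the 10 h genes); Rbl1, Gmnn, Gins1 and Gins2 were called lower only at 10 h.

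Single arrays moved these counts while keeping the direction of each named difference. The 30 calls at 6 h became 13 without untreated 6 h replicate 1 and 15 without treated 6 h replicate 2, and 10 of the 30 genes were called whichever array was left out: E2f1, E2f8, Cdc6, Orc6, Pcna, Prim1, Rrm2, Tk1, Slbp and Uhrf1. The 18 calls at 10 h became 8 and 11 without treated 10 h replicates 1 and 2, and 10 and 7 without untreated 10 h replicates 1 and 2; Cdk6, Mcm5, Prim1, Rrm2 and Tk1 were called every time. The 7 calls at 3 h became 3 without treated 3 h replicate 2 and 4 without untreated 3 h replicate 2, and E2f1, E2f2 and E2f8 were called every time.

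**Figure D2:**
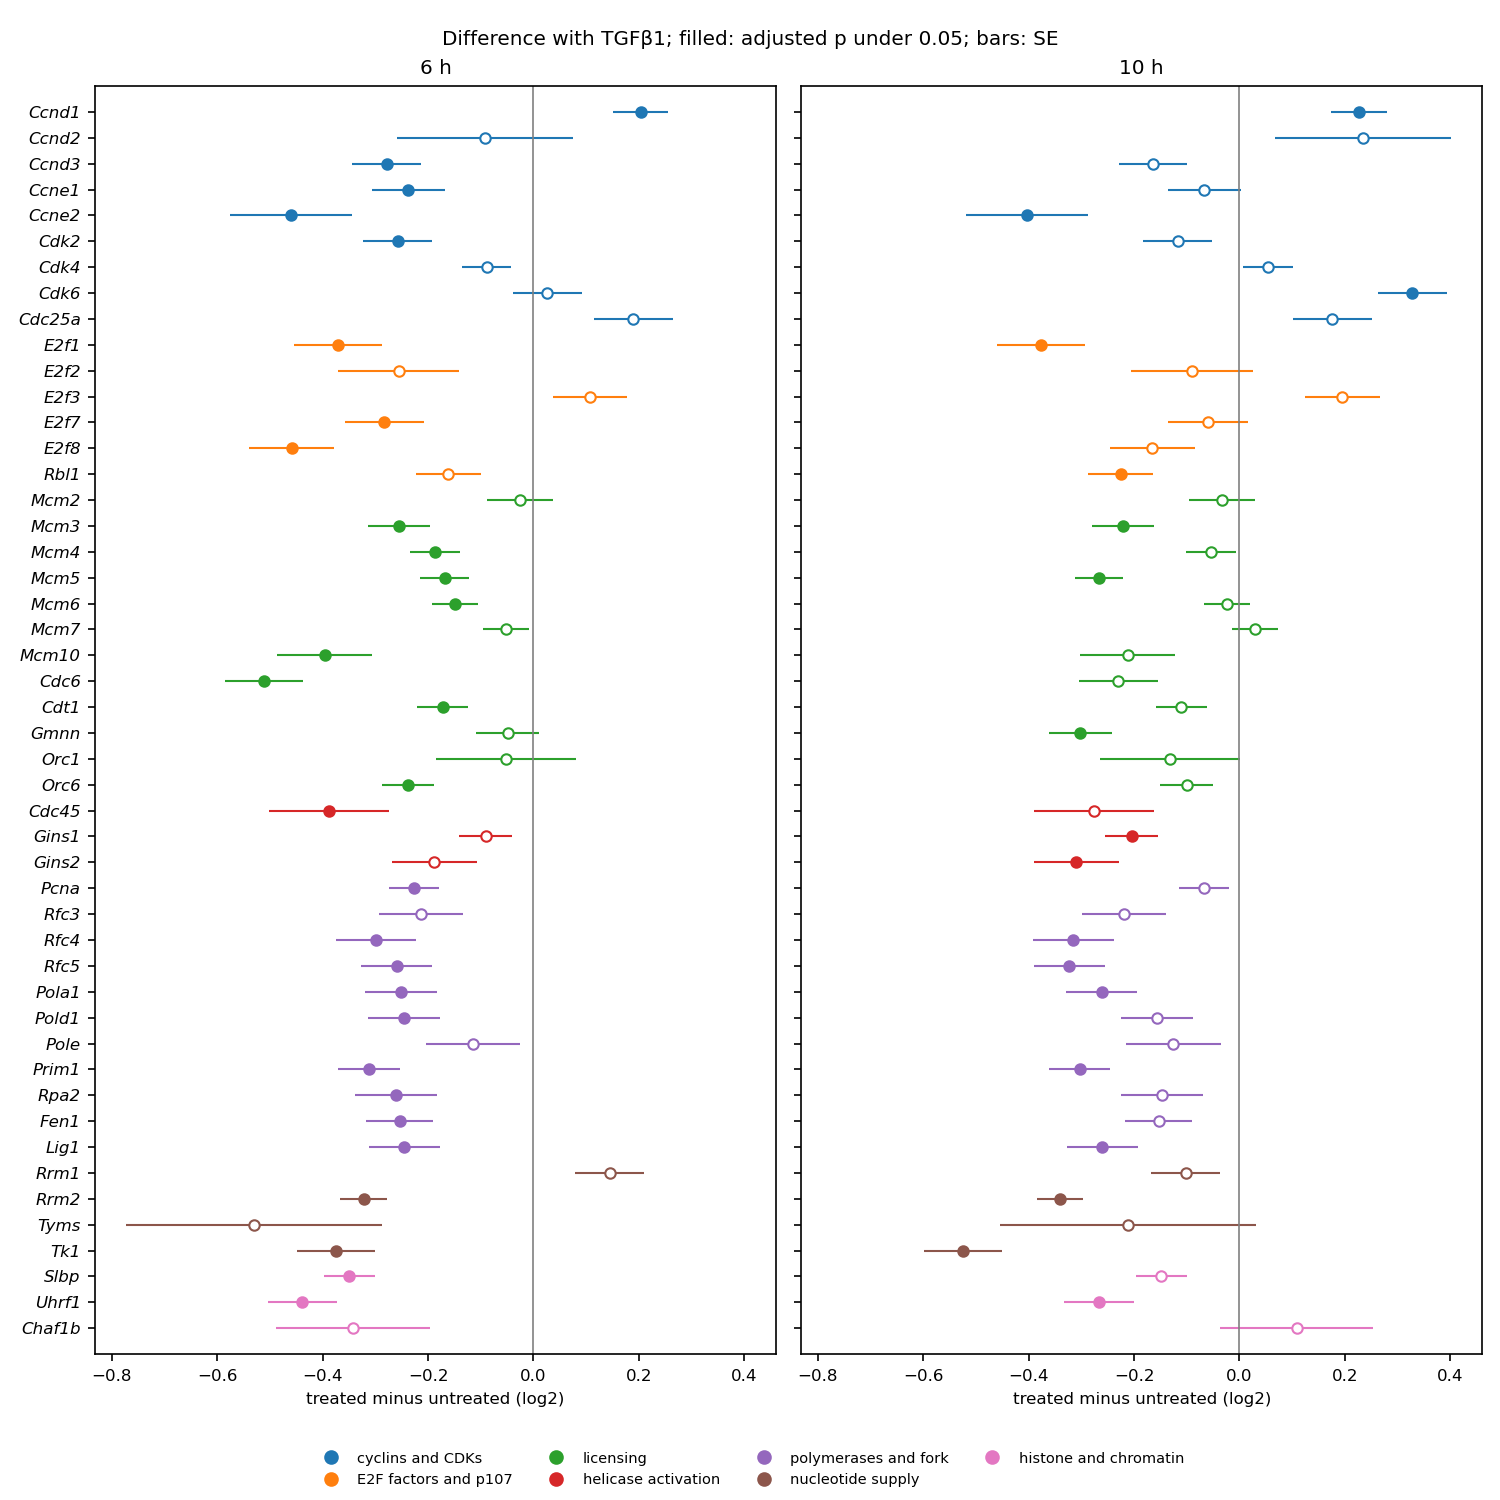
Treated minus untreated log2 difference (x axis) of each of the 48 genes (y axis) at 6 h and at 10 h, coloured by role, with SE bars; filled points have an adjusted p under 0.05. At 6 h 29 filled points lie left of 0 and Ccnd1 right of it, and at 10 h 16 lie left while Ccnd1 and Cdk6 lie right.

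E2f2 was the only gene of the 48 called at 1 h, and at 3 h the 7 called were E2f1, E2f2, E2f3 and E2f8 with Cdk2, Cdc25a and Uhrf1. E2f2, an activating E2F, was 7.85 and 7.46 on the treated arrays of 1 h against 6.98 and 6.90 on the untreated ones. By 3 h its treated arrays had dropped to 6.54 and 6.41, against 7.06 and 7.06. Both treated arrays thus stood above the untreated ones at 1 h and below them at 3 h. The differences were 0.71 ± 0.12 (SE; 1.64-fold higher, adjusted p = 4.51e-04) and −0.58 ± 0.12 (1.50-fold lower, adjusted p = 8.90e-04). The change from 1 to 3 h, −1.30, was itself called (adjusted p = 1.67e-05), and so were the changes of E2f1 (−0.49, adjusted p = 0.0111) and E2f8 (−0.41, adjusted p = 0.0332); 3.94% of all genes had a change called in that direction. Only that of E2f2 was called whichever array was left out; the count of 3 became 1 without treated 3 h replicate 2 or untreated 3 h replicate 1.

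E2f1, the best known activator of S-phase genes, rose in untreated cells from 8.04 and 7.93 at 0 h to 8.52 and 8.40 at 3 h, 8.74 and 8.64 at 6 h and 8.64 and 8.56 at 10 h. In treated cells it was 8.10 and 8.01 at 0 h, 8.03 and 7.88 at 3 h, 8.33 and 8.31 at 6 h and 8.24 and 8.21 at 10 h. The arms did not overlap at 3, 6 or 10 h. E2f1 was lower with TGFβ1 by 0.50 ± 0.08, 0.37 ± 0.08 and 0.38 ± 0.08 log2 units, that is 1.41-fold, 1.29-fold and 1.30-fold (adjusted p = 1.60e-04, 0.003 and 0.00497). In treated cells E2f1 was called higher at 6 h than at 0 h, by 0.27, though not in every run that left out 1 array. Its rise in untreated cells by 10 h was 1.53-fold (adjusted p = 8.04e-06), whereas treated cells at 10 h differed from 0 h by 0.17 (adjusted p = 0.151). This rests on 1 probe set. A second bright set of the gene, with a mean of 7.91, had differences of 0.00 at 6 h and −0.04 at 10 h, and −0.05 for untreated cells between 0 and 10 h. With the mean of the gene's sets the calls at 3 h (adjusted p = 0.280) and 10 h (0.535) and the untreated rise (0.0803) were lost; the call at 10 h was also lost without untreated 10 h replicate 1 (0.0729).

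E2f8, which encodes an atypical repressor E2F, was 8.08 and 7.95 on treated against 8.47 and 8.36 on untreated arrays of 3 h. At 6 h the values were 7.91 and 7.78 against 8.29 and 8.33. Treated arrays lay below both untreated arrays at both times, by 0.40 ± 0.08 (1.32-fold, adjusted p = 0.00114) and 0.46 ± 0.08 (1.37-fold, adjusted p = 2.83e-04). By 10 h both arms had fallen, from 8.61 and 8.61 to 7.47 and 7.68 untreated and from 8.59 and 8.60 to 7.44 and 7.38 treated, or 2.05-fold (adjusted p = 5.07e-09) and 2.27-fold (5.46e-10). The arms no longer differed by the test at 10 h (−0.17, adjusted p = 0.266). Averaging in a dim second probe set (mean 4.13) ended the call at 3 h (adjusted p = 0.456).

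Its relative E2f7 was 8.58 and 8.56 treated against 8.49 and 8.43 untreated at 3 h, and 8.37 and 8.24 against 8.63 and 8.55 at 6 h. It stood above the untreated arrays at 3 h, where the difference of 0.11 was not called, and below them at 6 h, where it was (−0.28 ± 0.08, adjusted p = 0.0118). That 6 h call was not kept in every run that left out 1 array. E2f3, an activator, was 8.69 and 8.67 treated against 8.36 and 8.50 untreated at 3 h, a rise of 0.25 ± 0.07 (1.19-fold, adjusted p = 0.0189). The call was lost without either treated array (0.107 and 0.0701) or untreated 3 h replicate 1 (0.241). Rbl1, the gene of the pocket protein p107, fell in both arms by 10 h, from 10.27 and 10.26 to 9.23 and 9.35 untreated and from 10.35 and 10.27 to 9.06 and 9.07 treated. These were 1.97-fold and 2.36-fold falls (adjusted p = 2.89e-10 and 8.28e-12). At 10 h it was lower with TGFβ1 (−0.23, adjusted p = 0.0225), a call lost without either treated array (0.138 and 0.0901) or untreated 10 h replicate 2 (0.262), and with the mean of its 4 probe sets the difference was 0.01.

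The G1 cyclins and kinases split by member. Of the 9 genes, 4 were lower and 1 higher at 6 h (7.96% and 7.77% of all genes). At 10 h 1 was lower and 2 higher (4.06% and 5.07% of all genes). Ccne2, which encodes cyclin E2, the partner of CDK2, was 7.95 and 7.70 on treated arrays of 6 h against 8.36 and 8.22, and 7.83 and 7.77 at 10 h against 8.23 and 8.17. Treated and untreated arrays did not overlap at either time. The differences were −0.46 ± 0.12 (1.38-fold, adjusted p = 0.00785) and −0.40 ± 0.12 (1.32-fold, adjusted p = 0.0312). The 6 h call was lost without treated 6 h replicate 2 (0.137) or untreated 6 h replicate 1 (0.0867), and the 10 h call without any single array of that time (0.105 to 0.189).

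Cdk2 was lower already at 3 h, with 9.50 and 9.41 against 9.64 and 9.75 (−0.24 ± 0.07, adjusted p = 0.0137), and again at 6 h (−0.26, adjusted p = 0.00808). The 3 h call was lost without treated 3 h replicate 2 (0.145) or untreated 3 h replicate 2 (0.182). Ccne1 and Ccnd3 were lower at 6 h by 0.24 and 0.28 log2 units and were not called at 10 h. The 6 h calls of Cdk2, Ccne1 and Ccnd3 were not kept in every run that left out 1 array. Over time Ccnd3 fell in both arms (−0.36 untreated and −0.59 treated at 10 h). With the mean of its probe sets these became 0.24 and 0.26, neither called. Its other sets had means of 5.80 and 5.18. In untreated cells by 10 h the first changed by 0.01, and the second rose by 1.08 (limma, adjusted p = 0.0132 over all probe sets).

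The cyclin D1 gene Ccnd1, which couples mitogen signals to CDK4 and CDK6, went the other way. It was 11.79 and 11.91 treated against 11.64 and 11.65 untreated at 6 h, and 12.05 and 12.08 against 11.84 and 11.84 at 10 h, with the treated arrays above at both times. The differences were 0.20 ± 0.05 (1.15-fold, adjusted p = 0.00906) and 0.23 ± 0.05 (1.17-fold, adjusted p = 0.00697). Its other bright probe sets gave 0.03 and 0.33 at 6 h, neither of which passed. The 6 h call was lost without treated 6 h replicate 2 (0.162) or untreated 6 h replicate 1 (0.0538). The 10 h call was lost without treated 10 h replicate 2 (0.0639), untreated 10 h replicate 1 (0.0607) or replicate 2 (0.0505).

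Cdk6 held its level in treated cells while it declined in untreated ones. At 10 h it was 9.46 and 9.46 treated against 9.09 and 9.18 untreated, from 9.35 and 9.52 and from 9.38 and 9.51 at 0 h. The treated arrays were both higher than the untreated ones, by 0.33 ± 0.06 (1.26-fold, adjusted p = 0.00178). Untreated cells had fallen by 0.31 (adjusted p = 8.51e-04), and treated cells differed from 0 h by 0.03 (adjusted p = 0.846). A second bright probe set gave 0.35 at 10 h (adjusted p = 0.00449 over all probe sets), but the mean of all 3 sets, 1 of them dim, did not pass (0.17, adjusted p = 0.280). Cdk4 rose with time in both arms, by 0.15 untreated and 0.17 treated at 10 h. The first call was lost without replicate 1 of untreated 0 h (0.274) or 10 h (0.123), and the second without treated 0 h replicate 1 (0.0743) or treated 10 h replicate 2 (0.124). Its treated and untreated levels differed by −0.09 at 6 h and 0.05 at 10 h, neither called, though another bright set was lower at 6 h (−0.17, adjusted p = 0.0171 over all probe sets).

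Cdc25a, the phosphatase that activates CDK2, was 9.91 and 9.91 treated against 9.65 and 9.66 untreated at 3 h. Both treated arrays were higher, by 0.26 ± 0.07 (1.20-fold, adjusted p = 0.0203). That call was lost without any single array of 3 h (0.0831 to 0.103). At 1 h, 6 h and 10 h the differences of 0.27, 0.19 and 0.18 did not pass (adjusted p = 0.0671, 0.0998 and 0.179).

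**Figure D3:**
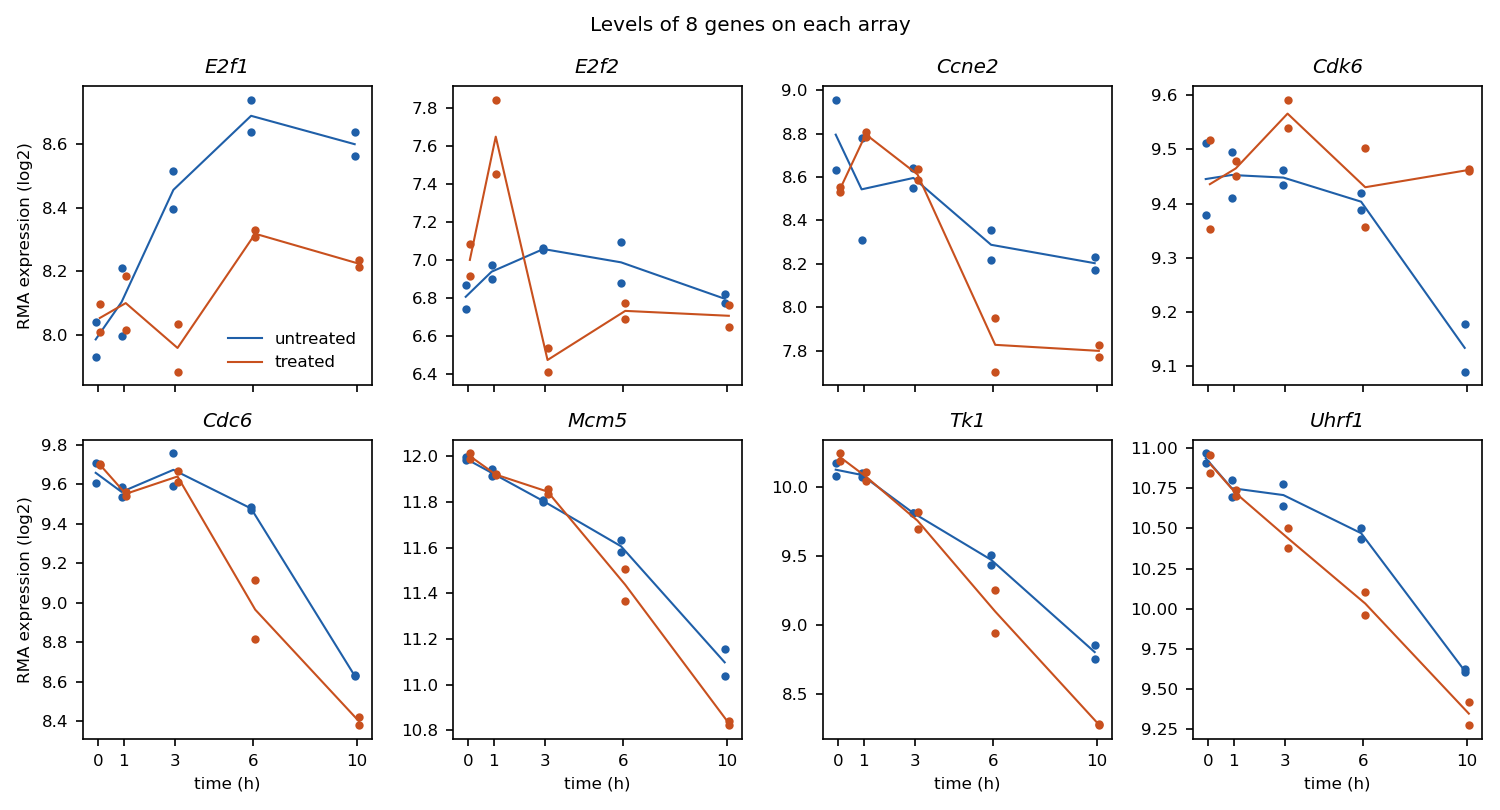
Log2 level on each array (y axis, points) against time in h (x axis) for 8 genes, with lines through the mean of the duplicates of treated and untreated cells. E2f1 rises in untreated cells and stays below 8.4 in treated cells, E2f2 peaks at 1 h with TGFβ1, Cdk6 is lower in untreated cells at 10 h, and Cdc6, Mcm5, Tk1 and Uhrf1 fall in both arms.

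Origin licensing genes were lower at 6 h in 8 of 12 cases and at 10 h in 3 (7.96% and 4.06% of all genes). Only Cdc6 and Orc6 at 6 h and Mcm5 at 10 h were called whichever array was left out. Cdc6, whose product loads the MCM helicase with CDT1, had the largest difference of all 48 genes among those called at 6 h. It was 9.11 and 8.81 on treated arrays against 9.48 and 9.47 on untreated ones. Both treated arrays were lower, by 0.51 ± 0.07 (1.43-fold, adjusted p = 3.06e-05). At 3 h it had been 9.66 and 9.61 against 9.59 and 9.76, overlapping, and the change of −0.48 from 3 to 6 h was called (adjusted p = 0.00935). By 10 h Cdc6 had fallen in both arms, from 9.71 and 9.61 to 8.63 and 8.63 untreated and from 9.69 and 9.70 to 8.42 and 8.38 treated. These falls were 2.04-fold (adjusted p = 1.96e-09) and 2.46-fold (5.12e-11), and the difference between the arms at 10 h, −0.23, did not pass (adjusted p = 0.0581).

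Mcm10, which joins the helicase at the start of synthesis, was 7.81 and 7.82 treated against 8.31 and 8.11 untreated at 6 h. The difference was −0.40 ± 0.09 (1.32-fold, adjusted p = 0.00331), and it was lost without untreated 6 h replicate 1 (0.0753). Of the MCM ring, Mcm3, Mcm4, Mcm5 and Mcm6 were lower at 6 h by 0.26, 0.19, 0.17 and 0.15 log2 units, whereas Mcm2 (−0.03, adjusted p = 0.873) and Mcm7 (−0.05, adjusted p = 0.523) were not called. These calls depended on the probe set. Other bright sets of Mcm2 (−0.18, adjusted p = 0.0318 over all probe sets) and Mcm7 (−0.21, adjusted p = 0.00273) were lower at 6 h, while second bright sets of Mcm4 (0.05) and Mcm6 (0.15) did not pass. A difference between subunits was not tested.

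Mcm5 fell in untreated cells from 12.00 and 11.98 to 11.04 and 11.16 at 10 h and in treated cells from 11.99 and 12.01 to 10.82 and 10.84. Every array of 10 h lay below every array of 0 h, and the treated pair below the untreated pair. The falls were 1.86-fold and 2.25-fold (adjusted p = 2.32e-11 and 3.21e-13), and the difference between the arms at 10 h was −0.27 ± 0.05 (1.20-fold, adjusted p = 5.60e-04). A second bright probe set of Mcm5 gave −0.27 there too. Mcm2 fell in both arms (−0.55 and −0.65). Cdt1 and Orc6 were called lower at 6 h, by 0.17 and 0.24 log2 units, while their differences of −0.11 and −0.10 at 10 h were not called. Gmnn, whose product geminin inhibits CDT1, was called only at 10 h (−0.30, adjusted p = 0.00186). Orc1 was called with TGFβ1 at neither time.

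Of the helicase activators, Cdc45 was called lower at 6 h and Gins1 and Gins2 at 10 h. Cdc45 was 8.54 and 8.59 treated against 8.99 and 8.92 untreated at 6 h, with no overlap. The difference of −0.39 ± 0.11 (1.31-fold, adjusted p = 0.0229) was lost without any single array of that time (0.0654 to 0.131), and its dimmer probe set gave 0.13. Gins2 was 8.94 and 9.00 treated against 9.18 and 9.38 untreated at 10 h. Both treated arrays were lower, by 0.31 ± 0.08 (1.24-fold, adjusted p = 0.0174), which was lost without treated replicate 1 (0.155) or 2 (0.0521) or untreated replicate 2 (0.275) of 10 h. The other bright Gins2 probe set was lower at both times (−0.42 at 6 h and −0.34 at 10 h, adjusted p = 5.54e-05 and 0.0013 over all probe sets). Gins1 was lower by 0.20 at 10 h, a call not kept in every run that left out 1 array.

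Among the 11 polymerase and fork genes 9 were lower at 6 h and 5 at 10 h (7.96% and 4.06% of all genes), and none was higher. Only Pcna and Prim1 at 6 h and Prim1 at 10 h were called whichever array was left out. Prim1, the catalytic primase subunit, was lower at both times (−0.31 and −0.30, adjusted p = 5.67e-04 and 0.00148), as were Pola1 (−0.25 and −0.26), the ligase gene Lig1 (−0.25 and −0.26) and the clamp loader genes Rfc4 and Rfc5. Rfc4 was 9.01 and 8.94 treated against 9.30 and 9.28 untreated at 10 h. Rfc5 was 9.59 and 9.72 against 9.93 and 10.03. In both genes the treated arrays lay wholly below the untreated ones, with differences of −0.32 ± 0.08 (1.24-fold, adjusted p = 0.0099) and −0.32 ± 0.07 (1.25-fold, adjusted p = 0.00297). The Rfc4 call was lost without treated 10 h replicate 2 (0.101), untreated replicate 1 (0.0812) or replicate 2 (0.0567), and the Rfc5 call without treated replicate 1 (0.0795) or untreated replicate 2 (0.0677).

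Pcna, the sliding clamp, was called lower only at 6 h (−0.23, adjusted p = 0.00163, against −0.07 at 10 h, adjusted p = 0.511). Pold1, Rpa2 and Fen1 were also called only at 6 h, lower by 0.25, 0.26 and 0.25. Their differences of −0.16, −0.15 and −0.15 at 10 h were not called. In Pcna and these genes both treated arrays of 10 h still lay below both untreated ones, as in 25.0% of all genes. Pole and Rfc3 were called at neither time (−0.11 and −0.21 at 6 h), but a second Rfc3 probe set of like level (mean 10.2) was lower at 6 h by 0.44 log2 units (adjusted p = 9.34e-06 over all probe sets) and was not called at 10 h (−0.16, adjusted p = 0.0976). Pola1, Pold1, Rfc5 and Lig1 also fell with time in untreated cells, by 0.35, 0.47, 0.39 and 0.80, and Rfc4 did not pass there (−0.19, adjusted p = 0.0843).

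Nucleotide supply held the largest fall with time in treated cells. Tk1, the salvage thymidine kinase, was 10.17 and 10.08 untreated at 0 h and 9.43 and 9.51 at 6 h and 8.75 and 8.85 at 10 h. In treated cells it was 10.24 and 10.19 at 0 h and 9.25 and 8.94 at 6 h and 8.27 and 8.29 at 10 h. The treated arrays were below the untreated ones at 6 and 10 h. The fall from 0 to 10 h was 2.50-fold untreated and 3.83-fold treated (adjusted p = 6.92e-11 and 3.21e-13), and the arms differed by −0.37 ± 0.07 at 6 h (1.30-fold, adjusted p = 9.57e-04) and −0.52 ± 0.07 at 10 h (1.44-fold, adjusted p = 6.00e-05).

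Rrm2, the small subunit of ribonucleotide reductase, was 11.80 and 11.70 treated against 12.06 and 12.09 untreated at 6 h, and 11.30 and 11.28 against 11.61 and 11.64 at 10 h. Its treated arrays were lower at both times, by 0.32 ± 0.04 (1.25-fold, adjusted p = 1.63e-05) and 0.34 ± 0.04 (1.27-fold, adjusted p = 2.16e-05). At 3 h the arms had stood at 12.17 and 12.15 against 12.18 and 12.21, and the change of −0.29 from 3 to 6 h was called (adjusted p = 0.00855). Rrm1, the large subunit, differed by 0.14 at 6 h and −0.10 at 10 h, neither called. Rrm1 did fall with time in both arms (−0.36 and −0.55). Tyms, thymidylate synthase, was dim on all 4 of its probe sets, with means from 2.76 to 4.18, and was not called between the arms (−0.53 at 6 h, adjusted p = 0.168). It counted among the genes that fell in treated cells from 0 to 6 h (−0.89, adjusted p = 0.00931), a call lost without treated 0 h replicate 2 (0.0916) or treated 6 h replicate 2 (0.113) and with the mean of its sets (0.440).

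Of the histone and chromatin genes, Uhrf1, which keeps DNA methylation through replication, was 10.50 and 10.38 treated against 10.64 and 10.78 untreated at 3 h, 10.10 and 9.96 against 10.44 and 10.51 at 6 h, and 9.27 and 9.42 against 9.62 and 9.60 at 10 h. The treated pair was lower at each of these times. The differences were −0.27 ± 0.07 (1.20-fold, adjusted p = 0.00663), −0.44 ± 0.07 (1.35-fold, adjusted p = 4.91e-05) and −0.27 ± 0.07 (1.20-fold, adjusted p = 0.0117); that of 3 h was lost without treated 3 h replicate 2 (0.118) or untreated 3 h replicate 2 (0.129). The 10 h call of Uhrf1 was also not kept in every run that left out 1 array, while its 6 h call was. From 0 h, where it was 10.91 and 10.97 untreated and 10.85 and 10.96 treated, Uhrf1 fell 2.50-fold and 2.94-fold by 10 h (adjusted p = 1.48e-11 and 6.09e-13). Slbp, which binds the stem-loop of histone mRNAs, was lower at 6 h by 0.35 (adjusted p = 1.91e-05) and not called at 10 h (−0.15, adjusted p = 0.0624). Chaf1b, a subunit of the histone chaperone CAF-1, was called at neither time.

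**Figure D4:**
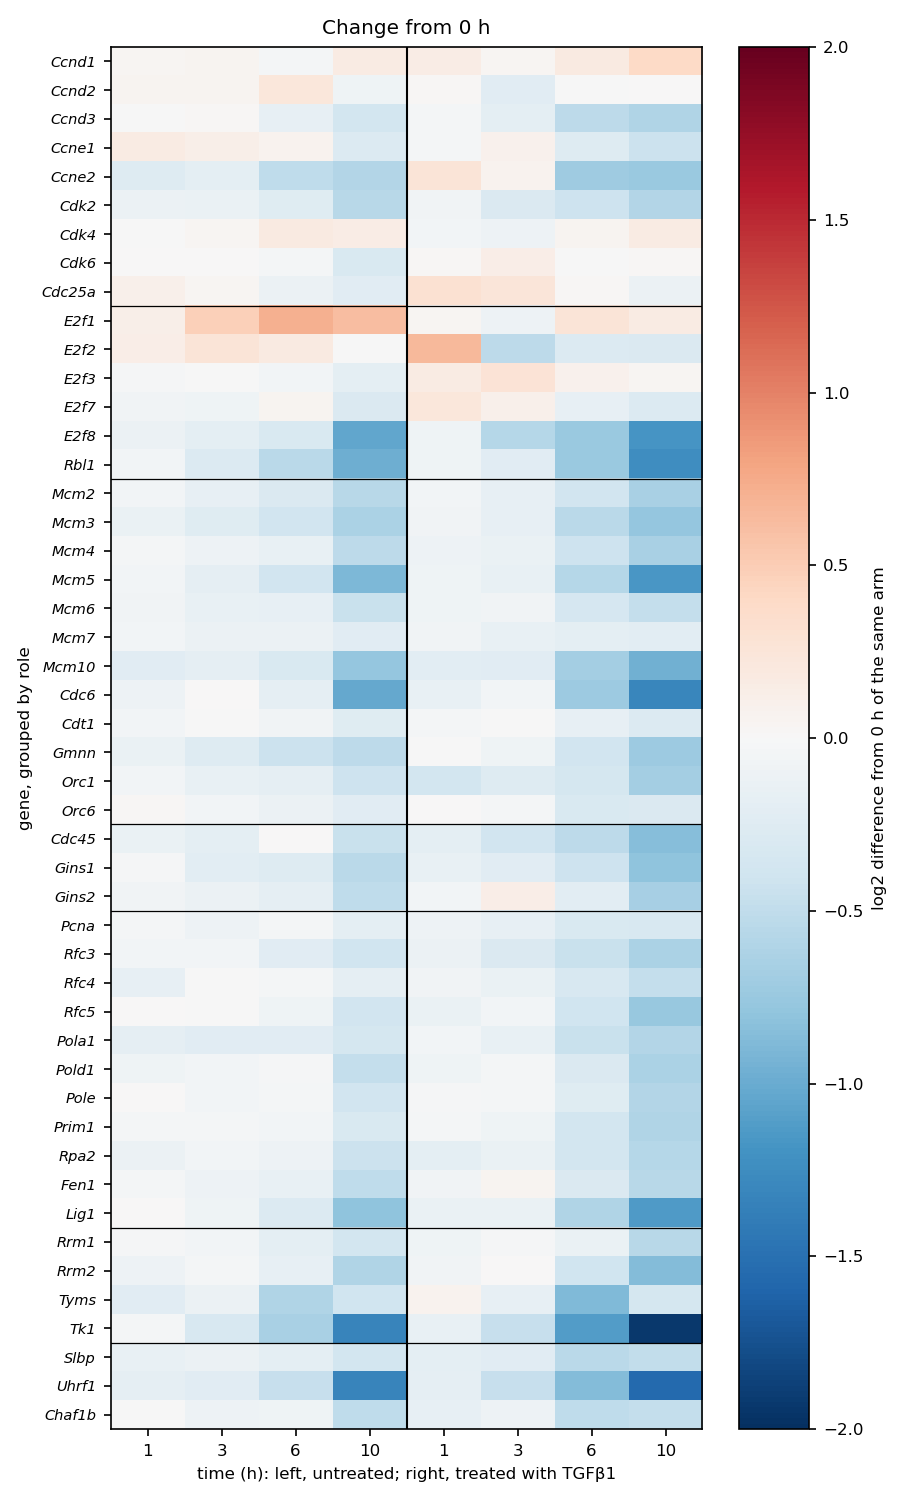
Log2 difference from 0 h of the same arm (colour) for each of the 48 genes (rows, grouped by role) at 1, 3, 6 and 10 h in untreated cells (left columns) and treated cells (right columns). Blue spreads over licensing, fork, nucleotide and chromatin genes by 10 h in both arms. By median it is deeper on the treated side for licensing (−0.66 against −0.52), fork (−0.59 against −0.39) and nucleotide genes (−0.71 against −0.50). For chromatin genes the median is −0.50 in both arms. Ccnd1 and Cdk4 are red at 10 h in both arms, and E2f1 is red mainly in untreated cells.

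By median the effect deepened between 3 and 6 h. It moved down in 41 of the 48 genes and up in 7 (9298 and 8895 of all 18193 genes). The largest upward change was that of E2f2 (0.33), which was not called. The treated-minus-untreated difference changed downward by a median of −0.21 over the 48 genes, with 24 at unadjusted p under 0.05 (16.0% of all genes). Limma called 4 (1.69% of all genes were called in that direction): E2f7 (−0.40, adjusted p = 0.0355), Mcm6 (−0.23, adjusted p = 0.0357), Cdc6 and Rrm2. For Mcm6 the arrays of 3 h were 11.46 and 11.35 treated against 11.34 and 11.31 untreated, and those of 6 h 11.17 and 11.13 against 11.32 and 11.28. The treated arrays of Mcm6 thus went from above the untreated ones to below them. The count of 4 became 9 without treated 6 h replicate 1, 0 without its replicate 2, 1 without untreated 3 h replicate 1 and 2 without untreated 6 h replicate 1. Between 6 and 10 h 0 changes were called by limma (2.44% of all genes), and the median change was 0.08. An unadjusted p under 0.05 was held by 10 (11.7% of all genes). The smaller count of calls at 10 h than at 6 h is therefore not shown to be a weaker effect.

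Genes lower with TGFβ1 at 6 h were set beside those that fell with time alone. Of the 29, 27 also fell in untreated cells between 0 and 10 h (93.1% of the 29 and 65.9% of the 41 that fell), where 85.4% of all 48 did and 14 of the 19 others (73.7%), so the share lies near that of the whole set. Over all genes, 305 of the 1448 lower at 6 h fell in untreated cells (21.1%), against 12.8% of all 18193. The exceptions among the 29 were E2f1, which rose, and Rfc4. These comparisons share no arrays, but their calls share the spread estimated for each gene. Across the 48 genes their log2 differences correlated at Pearson r = 0.38 (Spearman rho = 0.35), against r = −0.14 over all 18193 genes; genes are not independent replicates, and these values are descriptions.

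Other genes of replication gave a similar picture. Of 56 measured genes of this kind outside the 48, 24 were lower and 2 higher at 6 h (median −0.16; 7.96% and 7.77% of all genes) and 15 lower and 1 higher at 10 h (−0.12; 4.06% and 5.07%). At 3 h 10 were lower and 3 higher (8.55% and 6.73% of all genes). At 1 h limma called 0, where 1.91% of all genes were higher and 0.324% lower. An unadjusted p under 0.05 was held there by 3 (9.82% of all genes). The largest at 3 h were Rb1 (−0.55), Recql4 (−0.43), Rrm2b (−0.33) and Shmt1 (−0.32), of which Rb1 encodes the retinoblastoma protein. At 6 h they were Shmt1 (−0.67), Recql4 (−0.67), Cdc7 (−0.60) and Dscc1 (−0.53), and at 10 h Dscc1 (−0.56), Cdc7 (−0.48), Rpa1 (−0.40) and Pole2 (−0.39); Cdc7 encodes the kinase that fires licensed origins. In untreated cells 36 of the 56 fell by 10 h and 6 rose (12.8% and 13.3% of all genes). Upstream of the 48 genes, the CDK inhibitor gene Cdkn2b was higher with TGFβ1 by 0.70, 1.05 and 0.70 at 1, 3 and 6 h and not called at 10 h (0.18, adjusted p = 0.0672), while at 3, 6 and 10 h Cdkn2c was lower by 0.38, 0.56 and 0.52 and Cdkn2d by 0.95, 0.86 and 0.68. Cdkn1b was higher by 0.57 at 1 h, Cdkn1a was higher by 0.24 at 1 h and lower by 0.22 and 0.19 at 3 and 6 h, Myc was lower by 1.18 at 1 h and higher by 0.48 and 0.56 at 6 and 10 h, and Cdkn1c and Cdkn2a were called at none of these times.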

How the data were processed

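RNA of 20 Hepa1-6 cultures was hybridised to 1 Affymetrix array each. The authors deposited log2 expression values, 1 per probe set and array, made with RMA per the submitters' processing notes; which software version, chip description file or build served is not given in the sources used here. Its quantile step makes arrays comparable, so differences are relative to other transcripts, and dim probe sets have their differences compressed. No detection calls were used.

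The platform annotation named 1 gene for 34945 of 45037 probe sets, several for 932 and none for 9160, which were left out. Each of 18193 genes was read from its probe set of highest mean; 162 symbols were not in the RefSeq gene table. The group means of all 20 arrays were estimated together with limma 3.58.1 in R 4.3.3 (eBayes with a variance trend, 10 residual degrees of freedom), two-sided, with Benjamini-Hochberg adjustment over all genes within a comparison and 0.05 as the threshold. Errors after ± are standard errors of the log2 difference. Precision is limited by 2 arrays per group, and the labels call the duplicates biological. Each p-value sets a mean difference against 1 spread per gene, estimated from the duplicates of all 10 groups and moderated by eBayes. On simulated data for treated against untreated cells at 6 h, 200 of 18193 genes were shifted. Shifts of 0.3, 0.5 and 1 were recovered in 20.9%, 44.8% and 90.9% of cases, and 8 of 112 calls were false. The measured comparison called 2862 genes, so there the adjusted threshold was met at a larger unadjusted p. The median SE was also smaller for the replication genes (0.07) than for all genes (0.13). These rates therefore do not give the power for the replication genes, which was not tested.

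The 48 genes, the lists and the tests were chosen with earlier results of these data known. Given with every array are the 8 called members with the largest difference between arms at each time, the 6 with the largest change from 0 to 10 h in each arm, and called changes of the effect; of other replication genes, the 4 largest per time. Other members are named by role, and Ccnd1 was given by array after its values were seen. Alternatives were further quantile normalization, median centring, no variance trend, only genes above the median level, the mean of a gene's probe sets, every probe set tested, the compared arrays alone, all 0 h arrays as reference, the replicate number as a block, and leaving out each array.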

Additional observations from a re-analysis of the deposited data

Results flagged for a closer look

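The treated-minus-untreated difference changed between times in 7 of the 48 genes, by limma's test of the change itself. From 1 to 3 h it moved down for E2f2 (−1.30, adjusted p = 1.67e-05), E2f1 (−0.49, adjusted p = 0.0111) and E2f8 (−0.41, adjusted p = 0.0332). E2f2 crossed from above the untreated arrays to below them, and its call was made in every alternative run. That of E2f1 was lost without replicate 2 of treated 1 h (0.0724), replicate 2 of treated 3 h (0.0743), replicate 1 of untreated 1 h (0.0669) or replicate 1 of untreated 3 h (0.0687). That of E2f8 was lost without replicate 1 of treated 1 h (0.138), replicate 2 of treated 3 h (0.162), replicate 2 of untreated 1 h (0.169) or replicate 1 of untreated 3 h (0.155).

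From 3 to 6 h the difference moved down for Cdc6 (−0.48, adjusted p = 0.00935), E2f7 (−0.40, adjusted p = 0.0355), Rrm2 (−0.29, adjusted p = 0.00855) and Mcm6 (−0.23, adjusted p = 0.0357). Those of Cdc6 and Rrm2 were lost without treated 6 h replicate 2 (0.0613 and 0.0612), and that of Cdc6 also without untreated 3 h replicate 1 (0.0715). For E2f7 and Mcm6, 7 of the 8 arrays each ended the call when left out, with adjusted p from 0.0565 to 0.159 and from 0.056 to 0.192.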

How the results depend on the processing

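Of the values of the 43 pairs of gene and comparison that the naming rule selects, 466 kept their direction and their side of the threshold under an alternative, 90 lost the call and 0 reversed. Over all 265 called differences of the 48 genes, 5 reversed, each with the mean of a gene's probe sets and none of them called there: Rbl1 between the arms at 10 h (0.01), Gins1 in the mean effect over 1 to 10 h (0.07), Ccnd3 from 0 to 10 h in untreated (0.24) and treated cells (0.26), and Slbp from 0 to 1 h in treated cells (0.03). Counts of called genes stayed within 1.5 times in 187 settings and moved further in 49. Without the variance trend the calls fell to 18 (treated against untreated at 6 h), 8 (10 h), 0 (change from 3 to 6 h), 2 (untreated 3 h against 0 h), 1 (treated 1 h against 0 h) and 9 (treated 3 h against 0 h). With the mean of a gene's probe sets they were 4 (treated against untreated at 3 h), 11 (10 h), 1 (change from 1 to 3 h) and 1 (treated 1 h against 0 h). Further quantile normalization gave 10 calls and median centring 2 for the change from 3 to 6 h, testing every probe set gave 2, and genes above the median level gave 11 there and 2 at 1 h. The compared arrays alone gave 2 calls at 1 h and 1 for the change from 1 to 3 h. The cause of these shifts was not tested.

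Leaving out 1 array, where the lone array of a group is assumed to vary like the other groups, gave 1 to 2 calls at 1 h, 3 to 5 at 3 h, 13 to 27 at 6 h and 7 to 11 at 10 h between the arms. The changes of the effect had 1 to 3 (1 to 3 h), 0 to 9 (3 to 6 h) and 0 to 1 (6 to 10 h). Against 0 h, untreated cells had 1 to 5 at 3 h and 12 to 19 at 6 h, and treated cells 0 to 1 at 1 h and 8 to 11 at 3 h.

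Replicate numbers did not pair the arrays: same-numbered deviations of the arms correlated at −0.06 to 0.09. With the replicate block the calls were 12 for the change from 3 to 6 h and 1 for that from 6 to 10 h, and within 1.5 times elsewhere (31 at 6 h and 20 at 10 h between the arms). Under quantile normalization or median centring the share of higher calls among all called genes moved by under 10 percentage points in every comparison with calls. Dim probe sets limit Ccnd2 and Tyms. At 6 h the call depended on the probe set in Cdk4, Mcm2, Mcm7, Gins2 and Rfc3, called lower on another set above the median level, and in E2f1, Mcm4, Mcm6 and Cdc45 another such set was not lower.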
